A study of Mus musculus with 6 samples.

Results

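Long noncoding RNAs (lncRNAs) were examined in Hepa1-6, a cell line derived from a mouse liver tumour. They were chosen by biotype and by their counts summed over both groups, as rows of the deposited gene table with the biotype lncRNA and a sum of at least 150 counts over the 6 libraries, leaving out Neat1, Malat1, Snhg4, H19, Meg3, Airn, Peg13 and Kcnq1ot1 by name. The rule kept 504 of 9949 lncRNA rows, of which 4373 had a count in any library and 3863 had 1 to 149 counts. All 504 passed the filter on low counts and were tested among 14842 genes of the 55573 rows of the table. The members just inside the minimum were Gm16740, Gm10575 and Gm50103 with 150 counts and Gm20712 with 151, and just outside it stood 2610203C22Rik, Gm49767 and 2700046G09Rik with 149. The study measured RNA by bulk sequencing in 3 libraries of Hepa1-6 cells whose Matr3 gene had been targeted with CRISPR/Cas9 (Matr3 knockout) and in 3 libraries of wild-type cells, grown in the same medium and treated with no further agent. The labels leave unsaid whether libraries with the same genotype are separate cultures, or the knockout libraries 1 clone or several. The p-values therefore refer to the spread among these 6 libraries, part or all of which may be technical.

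A long noncoding RNA is a transcript made and often spliced like a messenger RNA that is not known to be translated into a protein. Some act as RNA molecules, in the nucleus as scaffolds or in the cytoplasm as decoys for proteins and microRNAs, while others are the carriers from which small nucleolar RNAs (snoRNAs) or microRNAs are released, and for many the act of transcription near another gene is the only known feature. Matrin 3, the product of Matr3, binds RNA and DNA in the nuclear matrix and has reported roles in splicing and in the handling of RNA in the nucleus. Most members carried only catalogue names: 242 had a Gm gene model symbol, 179 a Rik clone symbol, 26 a symbol for an opposite-strand transcript and 57 another symbol.

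Matr3 RNA stood at 76.0, 86.1 and 75.3 CPM (counts scaled to the same sequencing depth, per 1000000) in the knockout libraries, against 129, 125 and 134 CPM in wild-type libraries. The groups did not overlap, and the log2 fold change was -0.71 (edgeR's quasi-likelihood test, p adjusted by the Benjamini-Hochberg method = 0.00270), so a large part of the transcript was still counted in the knockout libraries. Library totals ran from 20736570 to 30794032 counts. The label of a liver cancer line was not borne out by hepatocyte markers: Alb, Ttr, Apoa1, Trf and Hnf4a held 0 to 3 counts in every library, and only Afp was above that, at 2.14 to 3.55 CPM in knockout and 4.57 to 5.06 CPM in wild-type libraries. All 6 hepatocyte markers summed to 2.30 to 3.62 CPM in knockout and 4.57 to 5.06 CPM in wild-type libraries. The 4 fibroblast markers summed to 531 to 643 CPM in knockout libraries and 585 to 686 CPM in wild-type libraries, nearly all of it Col3a1, whereas Dcn was at or near 0. Col1a1 went the other way from this sum, with 24.0, 15.2 and 22.3 CPM in knockout, against 11.2, 11.4 and 12.5 CPM in wild type, and Pdgfra had 3.80 to 4.35 CPM in knockout and 2.80 to 4.19 CPM in wild type. The 4 endothelial markers summed to 0.844 to 1.53 CPM in knockout and 2.85 to 3.56 CPM in wild-type libraries, with Kdr at or near 0. That difference lay in Cdh5, at 0.345 to 0.606 CPM in knockout and 1.98 to 2.70 CPM in wild type, while Pecam1 overlapped at 0.281 to 0.861 CPM in knockout and 0.373 to 0.875 CPM in wild type. The 4 macrophage markers summed to 12.4 to 16 CPM in knockout and 10.7 to 11.9 CPM in wild-type libraries, nearly all Cd68, with Adgre1 at 0. Their part in the results on lncRNAs was not tested. In bulk RNA, a change in the share of cells that make a transcript and a change in its amount per cell cannot be told apart.

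A smaller share of the lncRNAs than of all tested genes was called different between knockout and wild type. Of the 504 members, 18 were higher and 11 lower in the knockout libraries (edgeR quasi-likelihood test, adjusted p under 0.05), that is 3.57% and 2.18%, against 7.69% and 7.48% of all tested genes. In either direction 29 members were called, 5.75% against 15.2% of all tested genes. At an unadjusted p under 0.05 there were 104 members, 49 higher and 55 lower, with 31% of all tested genes below that p. The 3 knockout values lay wholly above the wild-type values in 63 members and wholly below in another 63, where 36.6% of all tested genes did not overlap. All 29 called members were among those 126. The fold was at least 2 in 12 of the 18 that rose and in 6 of the 11 that fell.

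The lncRNAs were measured on few counts, though the rule set their minimum. Their median sum over 6 libraries was 333.5 counts, against 3747 for all tested genes, and the median standard error (SE) of a log2 fold change was 0.325, against 0.142. Among genes with 150 to 499 counts the SEs were close, 0.360 for members and 0.338 for all tested genes, and 11 of 332 members were called, 3.31% against 11.4%. With 500 to 1999 counts 13 of 133 members were called, 9.77% against 18.4%, at median SEs of 0.226 and 0.187. With 2000 counts or more 5 of 39 were called, 12.8% against 16.3%, and there the median SE of members, 0.222, stood further above that of all tested genes, 0.113. The share of called members was below that of all tested genes in each band of counts, but least so with 2000 counts or more. That band held only 39 members, and their larger SE makes a call less likely. No test was made of the difference in any band.

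Wild-type library 1 stood apart from the other 5 in its lncRNAs. That it holds more lncRNA reads was known when the members were chosen, so the values here describe this excess and do not test it. Its counts also helped members to reach the minimum sum, which was not asked of all tested genes. Wild-type library 1 was the highest of the 6 libraries in 278 members, 55.2% against 22.4% of all tested genes, and wild-type libraries 2 and 3 were the highest in 17 and 30 members. The median ratio of its CPM to the mean of wild-type libraries 2 and 3 was 1.48 over the members and 0.982 over all tested genes, and in 135 members, 26.8% against 6.97% of all tested genes, it was at least 2. Among genes with 150 to 499 counts the contrast was smaller. There it was the highest library in 54.2% of members and 36.55% of all tested genes, at median ratios of 1.52 and 1.19. With 500 to 1999 counts these shares were 54.1% and 26.5%, and with 2000 counts or more 66.7% and 14.7%. Wild-type library 1 also had the smallest total and the most genes with a count, 23440 against 20450 to 21217 in the other libraries, and 3361 lncRNA rows with a count against 2670 to 2883. The members took 0.351%, 0.311% and 0.353% of all counts in the knockout libraries and 0.475%, 0.293% and 0.300% in the wild-type libraries. The share averaged 0.338% ± 0.0235 in knockout and 0.356% ± 0.103 in wild type (SD, n = 3 each), a difference of -0.0180 percentage points that was within the spread of the wild-type libraries (two-sided exact permutation test, p = 1.0, where 0.1 is the smallest p that 3 against 3 allows). Without wild-type library 1 the share in the wild type averaged 0.297% and the difference turned to 0.0413 percentage points (exact permutation test, p = 0.2).

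**Figure D1:**
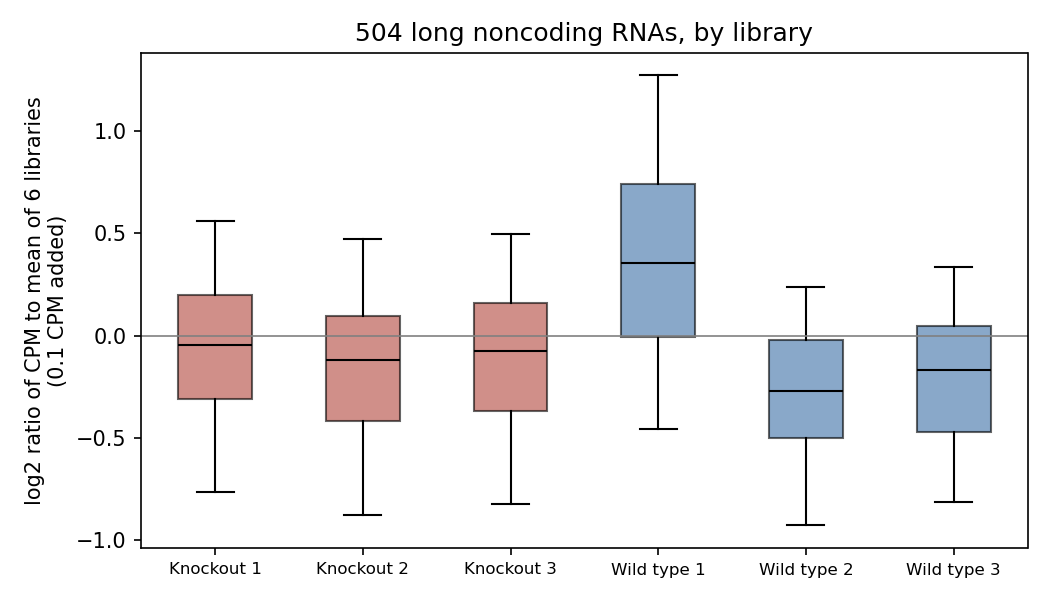
Box plots of the log2 ratio of each lncRNA's CPM in a library to its mean over the 6 libraries, with 0.1 CPM added, for 504 lncRNAs in 3 knockout and 3 wild-type libraries; lines are medians, boxes the middle 50% and whiskers the 5th to 95th percentiles. Wild-type library 1 has a median of 0.36, while the other 5 medians lie between -0.27 and -0.05.

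The sign of the members' median fold change turned with that library. The median log2 fold change of the 504 lncRNAs was -0.12 with all libraries and 0.15 without wild-type library 1, whereas the median of all tested genes was -0.02 and 0.02. The fold change was above 0 in 197 members with it and in 315 without it. Without it 30 members were called higher and 7 lower, with 6.92% and 6.56% of all genes tested called higher and lower. Of the called members 21 were called both with and without it, 16 higher and 5 lower, 8 were called with it alone and 16 without it alone.

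**Figure D2:**
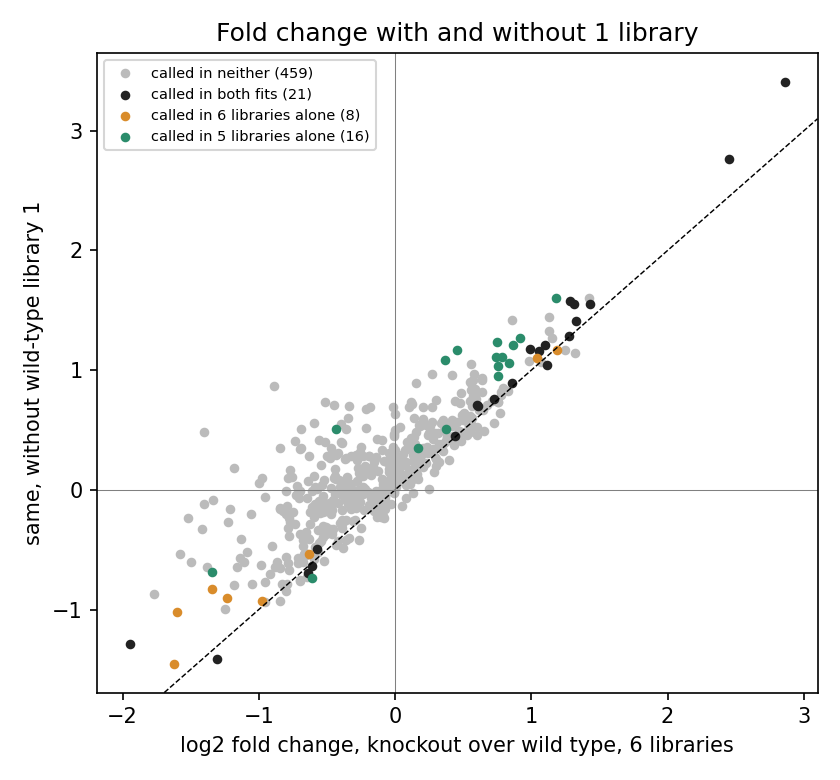
Log2 fold change of each of 504 lncRNAs, knockout over wild type, with all 6 libraries (x axis) and without wild-type library 1 (y axis); colours give the libraries under which the gene was called (adjusted p under 0.05) and the dashed line marks equal values. Most points lie above the dashed line, and 21 members were called under both.

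The largest rise was in 2900041M22Rik (ENSMUSG00000054418), whose function is not known. It had 2.20, 2.07 and 2.39 CPM in the knockout libraries, against 0.513, 0.150 and 0.266 CPM in those of the wild type. The knockout values lay well above every wild-type value, at 2.86 ± 0.426 on the log2 scale (fold change ± SE, edgeR quasi-likelihood, adjusted p = 0.00469). The wild-type values of 2900041M22Rik rest on few counts, so the size of this fold is uncertain. It was 2.525 on the log2 scale without wild-type library 2 and 3.407 without wild-type library 1. Most of the counts that brought this gene over the minimum sum came from the knockout libraries. Gm47015, also of unknown function, had 7.49, 6.89 and 7.0 CPM in knockout and 1.82, 1.20 and 0.913 CPM in wild type. Its groups were likewise far apart, with a log2 fold change of 2.45 (SE 0.257, edgeR adjusted p = 0.00125). 5430421F17Rik averaged 7.79 ± 0.354 CPM in knockout and 3.11 ± 0.365 CPM in wild type (SD, n = 3 each), which is a log2 fold change of 1.33 (edgeR adjusted p = 0.00252). Gm49980 averaged 12 ± 2.06 CPM in knockout and 4.94 ± 0.108 CPM in wild type (SD, n = 3 each), which is a log2 fold change of 1.28 (edgeR adjusted p = 0.00269).

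The other members among the 10 largest rises were 6530402F18Rik, Gm9936, Gm10825, Gm26581, Gm35037 and Platr22, with log2 fold changes from 1.10 to 1.43. None of them exceeded 5.52 CPM in any library. Platr22 belongs to a set of transcripts first catalogued for their link to pluripotency in mouse embryonic stem cells, and had 3.75, 5.04 and 3.38 CPM in knockout, against 2.15, 1.80 and 1.75 CPM in wild type. Its edgeR adjusted p was 0.0537 to 0.0821 when any of knockout library 1 and wild-type libraries 2 and 3 was left out. Gm10825 and Gm26581 lie on chromosome 10 among the Raet1 and H60 genes, which encode ligands of a receptor of natural killer cells. These 2 transcripts shared 90.9% of their 31-base words in the GENCODE M21 annotation, so reads counted for one may come from the other and their rises may not be independent. Of Gm49980's words 57.8% also occurred in other annotated genes, and its counts share that limit.

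Of the 8 smaller rises, named after their values were seen, Brip1os was by far the most abundant. It had 145, 130 and 148 CPM in the knockout libraries, against 103, 104 and 105 CPM in those of the wild type. The groups were separated by a gap wider than the spread of either, at a log2 fold change of 0.44 (SE 0.0859, edgeR adjusted p = 0.0138). The call was lost, at an adjusted p of 0.0652 to 0.0711, when any of knockout libraries 1 and 3 and wild-type libraries 2 and 3 was left out. Cep83os averaged 7.23 ± 0.405 CPM in knockout and 3.48 ± 0.439 CPM in wild type (SD, n = 3 each), which is a log2 fold change of 1.06 (edgeR adjusted p = 0.00602). D430020J02Rik averaged 16.4 ± 0.612 CPM in knockout and 9.89 ± 0.943 CPM in wild type (SD, n = 3 each), which is a log2 fold change of 0.73 (edgeR adjusted p = 0.00696). The other 5 were 4921531C22Rik, Gm14377, Gm28875, 5033406O09Rik and Gm49172, with log2 fold changes from 0.60 to 1.04. Among all 18 rises, 4921531C22Rik and Gm26581 lost the call without wild-type library 1 (edgeR adjusted p = 0.0562 and 0.0578).

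Among the members that fell, AI506816 was the most abundant lncRNA by counts. It had 192, 178 and 190 CPM in the knockout libraries, against 270, 304 and 282 CPM in the wild-type libraries, and all knockout values lay below all wild-type values. The log2 fold change was -0.61 (SE 0.0883, edgeR adjusted p = 0.00413), and wild-type library 1 was the lowest of the wild-type libraries here. AU020206, the smallest fall and named after its values were seen, had 43.2, 42.5 and 37.2 CPM in knockout and 66.3, 56.6 and 60.0 CPM in wild type, a log2 fold change of -0.57 (edgeR adjusted p = 0.00893, and 0.0538 without knockout library 3). Gt(ROSA)26Sor, the transcript of the Rosa26 locus into which transgenes are often placed because it is active in nearly all mouse tissues, had 6.16, 6.22 and 5.87 CPM in knockout, against 10.5, 8.23 and 9.59 CPM in wild type, a log2 fold change of -0.63 (edgeR adjusted p = 0.0237). That p ran from 0.0518 to 0.107 with 1 library left out, for knockout libraries 1 and 3 and for wild-type libraries 1 and 3.

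The largest fall was in Gm42047, with 3.57, 2.49 and 2.71 CPM in knockout, against 19.4, 7.11 and 7.30 CPM in wild type. Wild-type library 1 was far above its group, and the log2 fold change of -1.95 (SE 0.406, edgeR adjusted p = 0.0170) was -1.29 without that library (edgeR adjusted p = 0.0133). Of its 31-base words 72.3% also occurred in other annotated genes. The other falls were Gm12992, Gm47071, 2700038G22Rik, AA388235, Gm30373, Gm48284 and 5730471H19Rik, with log2 fold changes from -1.62 to -0.64. Of these, Gm12992, Gm47071, 2700038G22Rik, Gm30373 and Gm48284, like Gt(ROSA)26Sor, lost the call without wild-type library 1, at log2 fold changes from -1.45 to -0.53 (edgeR adjusted p from 0.0518 to 0.0851). Gm42047 lost it without knockout library 3 (0.0582).

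**Figure D3:**
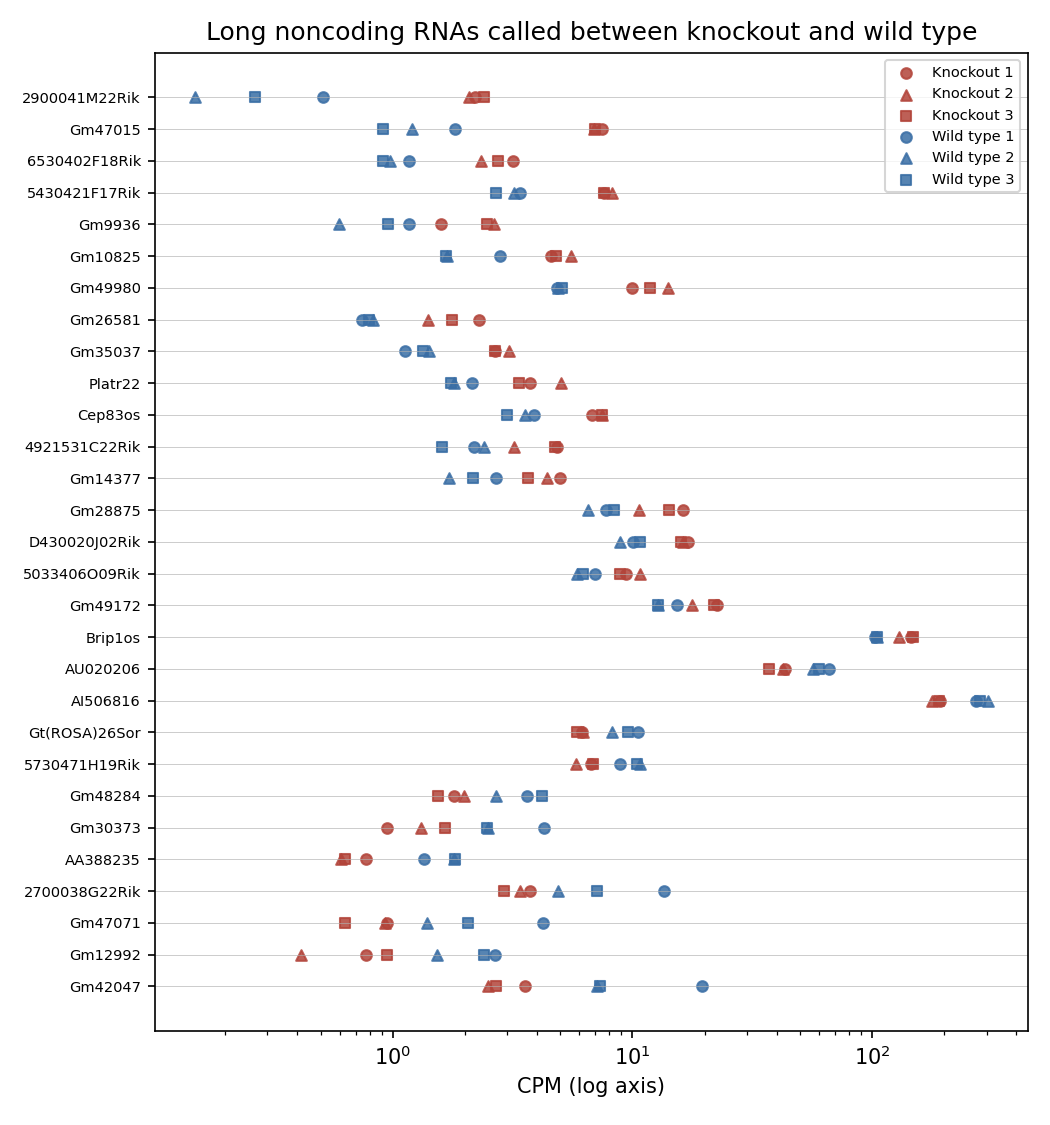
CPM (log axis) of the 29 called lncRNAs in each library, knockout in red and wild type in blue, from the largest rise at the top to the largest fall at the bottom. In every row the 3 knockout points and the 3 wild-type points do not overlap, and in Gm42047 and 2700038G22Rik wild-type library 1 stands far to the right.

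Most of the calls were lost when certain single libraries were left out. With each library left out in turn, 7 of the 29 members stayed called each time: 2900041M22Rik, Gm47015, 5430421F17Rik, Gm49980, Cep83os and D430020J02Rik among those higher and AI506816 among those lower. Their highest edgeR adjusted p in those fits was 0.0377. The other 22 lost the call in at least 1 of them, 19 without knockout library 1, 1 without knockout library 2 (Gm9936), 19 without knockout library 3, 8 without wild-type library 1, 14 without wild-type library 2 and 20 without wild-type library 3, at edgeR adjusted p from 0.0505 to 0.155. The fold change of all 29 kept its sign in each. Over all 504 members leaving out knockout library 1 gave 7 members called higher and 3 lower, where 3.09% and 2.53% of all tested genes were. The same counts were 34 and 23 for knockout library 2 (all genes 15% and 13.1%) and 9 and 1 for knockout library 3 (2.97% and 2.46%). They were 30 and 7 for wild-type library 1 (6.92% and 6.56%), 7 and 8 for wild-type library 2 (3.03% and 3.05%), and 6 and 4 for wild-type library 3 (2.57% and 2.71%).

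The promoter windows of the largest rise and of the most abundant member that fell are shown so that the bases around their starts can be compared. RefSeq annotates them on GRCm38.p6 from 250 bases before to 50 after the start. The window of 2900041M22Rik (chr11:117610997-117611296, plus strand) holds 8 CG dinucleotides and that of AI506816 (chr5:23712618-23712917, minus strand) 21. Neither holds any of the 4 motifs searched on both strands (TATAAA, GAAANNGAA, TGATGNAA and CCGGAAG), which stand in 14.2%, 8.57%, 4.06% and 9.12% of the first windows of 27025 genes.
2900041M22Rik: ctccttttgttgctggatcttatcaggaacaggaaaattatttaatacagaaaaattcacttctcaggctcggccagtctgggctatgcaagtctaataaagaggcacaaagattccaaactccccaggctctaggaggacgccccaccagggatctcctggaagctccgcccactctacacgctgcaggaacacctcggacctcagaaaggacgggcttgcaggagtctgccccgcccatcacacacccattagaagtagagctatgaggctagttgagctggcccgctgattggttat
AI506816: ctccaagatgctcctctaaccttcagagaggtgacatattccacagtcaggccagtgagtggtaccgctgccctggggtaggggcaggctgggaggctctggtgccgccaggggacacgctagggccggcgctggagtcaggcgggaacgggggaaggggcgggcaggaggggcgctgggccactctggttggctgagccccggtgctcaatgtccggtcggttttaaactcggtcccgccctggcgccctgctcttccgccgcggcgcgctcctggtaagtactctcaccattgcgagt

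Over the 285 members with a RefSeq window the median number of CG dinucleotides was 16, against 7 over all 27025 genes, and the motif CCGGAAG stood in 18.2% of them, against 9.12%. The 27025 genes were taken whether or not they were expressed in these cells, whereas the members were chosen by their counts. The contrast can therefore not be read as a trait of lncRNAs. In the 11 windows of members that rose the median was 8 CG dinucleotides, and in the 6 of members that fell it was 14. No window of the 17 called members held TATAAA or GAAANNGAA. A match or its absence describes only these letters in these windows.

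Levels per length differed widely among the members. By FPKM, the deposited count per length and library size, the 10 highest were Gm10076, 2410006H16Rik, Erdr1, AI506816, 1110038B12Rik, Norad, Snhg6, Snhg8, Zfas1 and Gas5, and only AI506816 among them was called. The median member had 1.14 FPKM, against 5.68 FPKM for all tested genes, 24 members reached 10 FPKM and 230 stayed under 1 FPKM. Gm10076 had 297, 94.1 and 445 FPKM in the knockout libraries and 155, 142 and 82.5 FPKM in the wild-type libraries. Knockout libraries 1 and 3 were high and knockout library 2 was within the wild-type range, so the groups overlapped (log2 fold change 1.13, edgeR adjusted p = 0.155). Of its 31-base words 82.2% also occur in Rpl41, a ribosomal protein gene, so its level is uncertain.

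2410006H16Rik, a short snoRNA host, was likewise highest in knockout libraries 3 and 1. It had 127, 44.5 and 140 CPM in knockout, against 65.0, 43.4 and 33.5 CPM in wild type, with a log2 fold change of 1.13 (SE 0.405, edgeR adjusted p = 0.0969). Zfas1, Erdr1 and Snhg8 also had their lowest knockout value in knockout library 2, whereas Snhg6 had its highest there, at 70.4 CPM against 36.6 and 38.5 CPM in knockout libraries 1 and 3. Over the members, knockout library 2 was at least 1.5-fold below the mean of the other knockout libraries in 88 and at least 1.5-fold above it in 45. Norad, a cytoplasmic decoy for Pumilio proteins, had 227, 186 and 246 CPM in knockout, against 211, 202 and 195 CPM in wild type, and the groups overlapped (log2 fold change 0.11, edgeR adjusted p = 0.536).

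The members that held most of the excess of wild-type library 1 over the other libraries were Gm47283, Erdr1, Gas5, 1110038B12Rik, AI506816, Snhg17, Oip5os1 and Mir100hg. Gm47283 had 87.4, 72.6 and 79.4 CPM in the knockout libraries, against 219, 59.4 and 63.0 CPM in those of the wild type. Wild-type library 1 was 3.59 times the mean of wild-type libraries 2 and 3, while those 2 lay below every knockout value. Erdr1 had 123, 41.6 and 114 CPM in knockout, against 192, 72.5 and 58.7 CPM in wild type. Gm47283 lies on chromosome Y and Erdr1 on chromosome X, and 62.0% of the 31-base words of Erdr1 also occur in Gm47283, so reads cannot be assigned to one of them with certainty. The excess was taken over the mean of the other libraries, knockout included, so abundant members could enter without standing out within the wild type. In AI506816 and Oip5os1 wild-type library 1 was 0.921 and 1.12 times the mean of wild-type libraries 2 and 3. For AI506816 the excess came from the lower knockout values, as wild-type library 1 was the lowest of its group. Malat1, a long nuclear RNA left out by name, had 153, 150 and 125 CPM in knockout, against 934, 117 and 144 CPM in wild type. What sets this library apart was not tested.

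None of the lncRNAs on 8 lists of known roles passed the test. The lists were drawn with earlier results of these data known and held 35 members, of which 5 had an unadjusted p under 0.05 (2410006H16Rik, Mir17hg, Epb41l4aos, Crnde and Mir155hg), where 31% of all tested genes were below that p and 15.2% were called. DESeq2 called 1, Mir17hg (adjusted p = 0.00088), and limma voom 0. Their median log2 fold change was -0.32 with all libraries and 0.04 without wild-type library 1, and that library was the highest in 28 of them. Without it 2 were called by edgeR, Snhg1 (log2 fold change 0.35, adjusted p = 0.0404) and Mir17hg (log2 fold change -0.68, adjusted p = 0.0417).

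The 15 snoRNA hosts carry in their introns the small RNAs that guide chemical marking of ribosomal RNA. None was called, 2 had an unadjusted p under 0.05, their median log2 fold change was -0.18 (0.12 without wild-type library 1), and wild-type library 1 was the highest in 13. Gas5, which is degraded when translated and builds up when growth stops, had 106, 90.3 and 108 CPM in the knockout libraries, against 190, 104 and 104 CPM in the wild-type libraries. Apart from wild-type library 1 the groups overlapped, and the log2 fold change was -0.39 with it (edgeR adjusted p = 0.285) and -0.02 without it. Snhg1 had 68.8, 73.8 and 75.6 CPM in knockout, against 79.3, 57.9 and 57.3 CPM in wild type. Snhg17 had 42.2, 36.5 and 39.9 CPM in knockout, against 85.3, 38.3 and 40.8 CPM in wild type, the same pattern as Gas5. The other hosts, with log2 fold changes from -0.78 in Dancr to 0.21 in Zfas1 when 2410006H16Rik is set aside, were 1110038B12Rik, Snhg5, Snhg6, Snhg8, Snhg12, Snhg15, Snhg16, Snhg20 and Epb41l4aos.

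**Figure D4:**
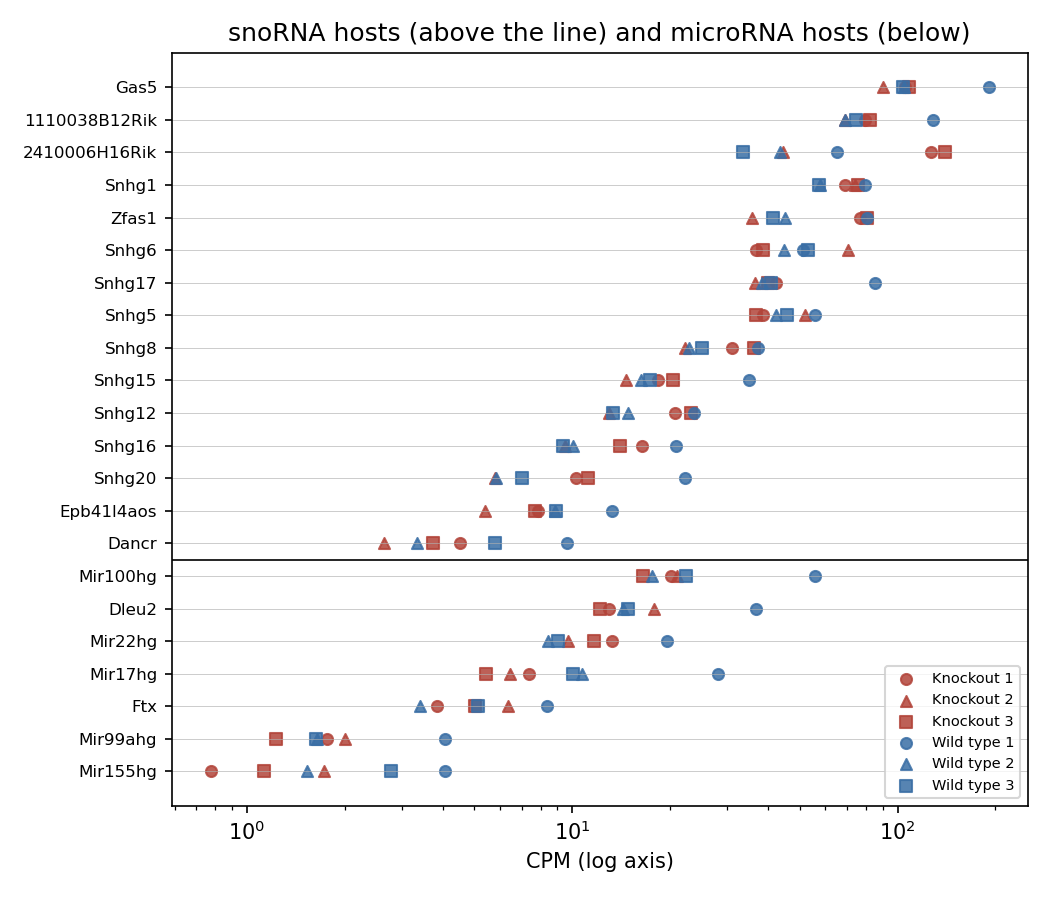
CPM (log axis) of 15 snoRNA hosts (above the line) and 7 microRNA hosts (below) in each library, knockout in red and wild type in blue. Wild-type library 1 is the rightmost point in 13 of the 15 snoRNA hosts and in all 7 microRNA hosts.

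Many snoRNA host genes are known to start with a C followed by a run of C or T bases, a tract shared with messenger RNAs of ribosomal proteins. The starts of the hosts that carry such a run are shown to let this feature be seen, with 30 bases before and 30 from the RefSeq start (GRCm38.p6) and the run in capitals. They are Gas5 (chr1:161035136-161035195, plus strand), Snhg1 (chr19:8723457-8723516, plus), Snhg8 (chr3:123508307-123508366, minus), 1110038B12Rik (chr17:34952439-34952498, minus) and 2410006H16Rik (chr11:62602847-62602906, plus). A start with C and at least 2 further C or T bases was annotated for 5 of 13 hosts with a window, 38.5%, against 11.6% of 285 members and 6.90% of 27025 genes. Any annotated start of a gene counted here, and the 27025 genes were taken whether or not they were expressed in these cells. For Gas5 and 1110038B12Rik the start shown is RefSeq start 2, and start 1 of each carries no such run. These 5 hosts had fold changes of both signs: Gas5 and 1110038B12Rik had log2 fold changes of -0.39 and -0.23, Snhg1, Snhg8 and 2410006H16Rik of 0.17, 0.07 and 1.13, and none was called.
Gas5: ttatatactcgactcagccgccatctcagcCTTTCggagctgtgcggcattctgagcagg
Snhg1: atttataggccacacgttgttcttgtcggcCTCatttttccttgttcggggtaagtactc
Snhg8: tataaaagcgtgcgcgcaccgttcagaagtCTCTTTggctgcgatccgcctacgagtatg
1110038B12Rik: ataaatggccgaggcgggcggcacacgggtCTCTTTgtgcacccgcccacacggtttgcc
2410006H16Rik: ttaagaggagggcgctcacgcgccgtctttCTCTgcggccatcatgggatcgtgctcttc

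The 7 microRNA hosts were Mir17hg, Mir22hg, Mir99ahg, Mir100hg, Mir155hg, Dleu2 and Ftx. None was called by edgeR, 2 had an unadjusted p under 0.05, and their median log2 fold change was -0.61 with all libraries and -0.01 without wild-type library 1, the highest library in all 7. Mir17hg, the host of the miR-17-92 cluster of growth-promoting microRNAs, had 7.36, 6.45 and 5.45 CPM in the knockout libraries, against 28.1, 10.7 and 10.1 CPM in the wild-type libraries. All knockout values lay below all wild-type values, and wild-type library 1 was far above the other two. The log2 fold change was -1.34 (SE 0.383, edgeR adjusted p = 0.0503), just outside the threshold, and -0.68 without wild-type library 1 (adjusted p = 0.0417), just inside it. Mir100hg had 20.1, 21 and 16.5 CPM in knockout, against 55.6, 17.6 and 22.4 CPM in wild type, and Dleu2 had 13, 17.8 and 12.1 CPM in knockout, against 36.7, 14.3 and 14.8 CPM in wild type. In both, the groups overlapped with or without wild-type library 1.

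The mature microRNAs of the Mir17hg cluster are shown because their host was the microRNA carrier closest to the threshold; they themselves were not measured by these libraries. The 6 RefSeq hairpins lie within chr14:115043671-115044506 on the plus strand of GRCm38.p6. The seed, bases 2 to 8, is in capitals: miR-17-5p and miR-20a-5p share 1 seed, miR-19a-3p and miR-19b-3p share another, and miR-18a-5p and miR-92a-3p have seeds of their own among these 6.
mmu-miR-17-5p: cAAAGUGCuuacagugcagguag
mmu-miR-20a-5p: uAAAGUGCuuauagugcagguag
mmu-miR-18a-5p: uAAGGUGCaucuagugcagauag
mmu-miR-19a-3p: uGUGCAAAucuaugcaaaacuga
mmu-miR-19b-3p: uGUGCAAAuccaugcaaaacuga
mmu-miR-92a-3p: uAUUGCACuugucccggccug

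The remaining lists held few members. The 3 of the X inactivation list, Jpx, Ftx and Firre, had log2 fold changes of -0.32, -0.14 and -0.44, and wild-type library 1 was the highest in each. Without it all 3 turned, to 0.28, 0.27 and 0.11. Of the 6 on p53, DNA damage and growth, 1 had an unadjusted p under 0.05 and the smallest edgeR adjusted p was 0.101, in Crnde, which had 4.74, 4.56 and 4.15 CPM in knockout, against 10.2, 5.02 and 6.74 CPM in wild type. Pvt1, the neighbour of Myc, had 10.6, 10.6 and 10.6 CPM in knockout, against 20.4, 10.3 and 13.6 CPM in wild type (log2 fold change -0.47, edgeR adjusted p = 0.198). Trp53cor1, known as lincRNA-p21 and induced by p53, averaged 1.28 ± 0.199 CPM in knockout and 1.64 ± 0.178 CPM in wild type (SD, n = 3 each), which is a log2 fold change of -0.36 (edgeR adjusted p = 0.417). Lncpint had a log2 fold change of -1.41 that was -0.11 without wild-type library 1.

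The 5 members on interferon and inflammation are of interest because the series title names the type I interferon response. They were Mir155hg, Mir22hg, Ptgs2os, Ptgs2os2 and Morrbid, and none was called (1 at an unadjusted p under 0.05). Mir155hg, the host of a microRNA induced in activated immune cells, had 0.775, 1.72 and 1.13 CPM in the knockout libraries, against 4.06, 1.53 and 2.78 CPM in those of the wild type. The groups overlapped (log2 fold change -1.18, edgeR adjusted p = 0.0990). Ptgs2os had 2.50, 2.81 and 2.18 CPM in knockout and 2.66, 2.47 and 3.08 CPM in wild type, and Morrbid, which restrains the death gene Bcl2l11 in mouse myeloid cells, had 14.9, 12.4 and 13.7 CPM in knockout and 17.4, 11.1 and 13.1 CPM in wild type.

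The 6 scaffolds and decoys were Norad, Oip5os1, Firre, Hotairm1, Fendrr and Lncpint, with edgeR adjusted p from 0.238 upwards. Oip5os1, the mouse counterpart of Cyrano, which promotes decay of miR-7, had 168, 190 and 185 CPM in knockout, against 217, 194 and 196 CPM in wild type. The groups did not overlap, at a log2 fold change of -0.16 (SE 0.0924, edgeR adjusted p = 0.286). Fendrr, needed for heart and body wall development in mouse embryos, had 14.6, 15.0 and 13.3 CPM in knockout, against 35.2, 14.2 and 14.5 CPM in wild type. Of 10 liver lncRNA rows on the list none reached the count minimum, and the list of ribosomal DNA-like and satellite-like loci held no lncRNA row.

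By position in the table, 111 members started within 2000 bases of a protein-coding gene on the other strand without overlap (divergent), 219 overlapped a coding gene on the opposite strand, 42 overlapped one on the same strand, and 173 were in none of these classes, where a member may be in more than 1 of the first 3 classes. Called members were 6 of 111, 8 of 219, 2 of 42 and 16 of 173, or 5.41%, 3.65%, 4.76% and 9.25%. Wild-type library 1 was the highest library in 69.0% of members with same-strand overlap, 60.7% with opposite-strand overlap, 43.2% of divergent members and 54.9% of the rest. Whether counting used the strand is not stated in the sources used here, so reads of overlapping genes cannot be told apart.

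In no pair were a lncRNA and its coding partner both called, but only 17 pairs held a called lncRNA and a tested partner, and 15.2% of all tested genes were called. Among 109 divergent pairs with a tested partner, the lncRNA was called in 6 and the partner in 10. The 237 pairs with opposite-strand overlap held a called lncRNA in 9 (7 different lncRNAs) and a called partner in 47. The 34 with same-strand overlap held a called lncRNA in 2, both of them Gm26581, and a called partner in 11. The fold changes had the same sign in 64, 141 and 24 of these pairs, with Pearson's r across pairs of 0.14, 0.20 and 0.15, where genes are not independent replicates and the pairs share libraries. Of the 29 called members 4 had a called gene as nearest tested coding gene, against 19% of all members. They were 2700038G22Rik, Platr22, Gm48284 and Gm9936.

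**Figure D5:**
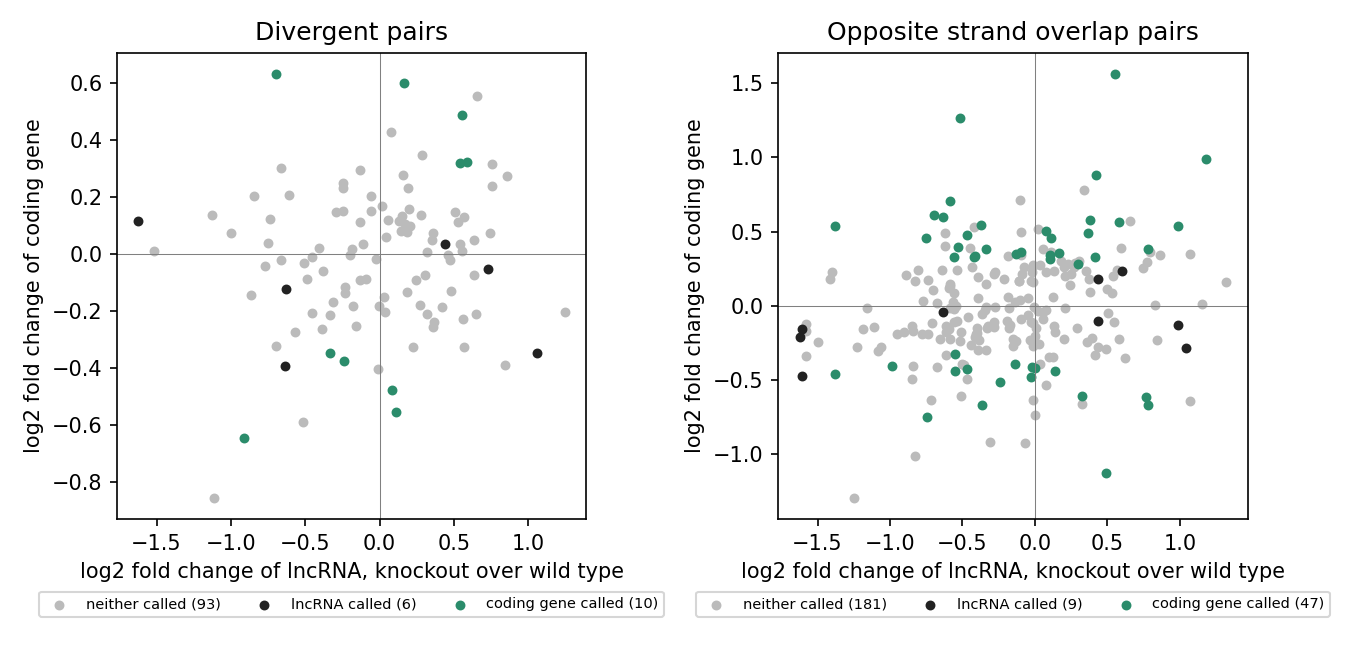
Log2 fold change, knockout over wild type, of each lncRNA (x axis) and of its coding partner (y axis) for 109 divergent pairs and 237 pairs with opposite-strand overlap, coloured by which of the pair was called. No pair has both called, and the black points, called lncRNAs, spread along the x axis with partners between -0.47 and 0.24.

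The pairs of called members show this in single values. Cep83, which encodes a protein of the centriole appendages that anchor cilia, had 34.8, 40.2 and 31.2 CPM in the knockout libraries, against 45.9, 42.6 and 46.6 CPM in the wild-type libraries. All knockout values were below the wild-type values (log2 fold change -0.35, edgeR adjusted p = 0.0712), whereas its divergent partner Cep83os was higher in all knockout libraries. Ncapg2, a condensin subunit divergent from D430020J02Rik, had a log2 fold change of -0.05 (edgeR adjusted p = 0.811). Brip1, a DNA repair helicase divergent from Brip1os, had a log2 fold change of 0.03 (adjusted p = 0.864), and Setd5 and Tgif2, divergent from Gt(ROSA)26Sor and 5730471H19Rik, of -0.12 and -0.39 (adjusted p of 0.364 and 0.222).

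The shared start region of Cep83os and Cep83 is shown since the fold changes of the 2 transcripts lie on opposite sides of 0. It is the RefSeq window of Cep83os (GRCm38.p6, chr10:94688564-94688863, minus strand). The capitals run from the start of Cep83 to that of Cep83os, whose RefSeq starts are 177 bases apart (78 in the deposited table), and the window holds 46 CG dinucleotides and none of the 4 motifs.
Cep83os: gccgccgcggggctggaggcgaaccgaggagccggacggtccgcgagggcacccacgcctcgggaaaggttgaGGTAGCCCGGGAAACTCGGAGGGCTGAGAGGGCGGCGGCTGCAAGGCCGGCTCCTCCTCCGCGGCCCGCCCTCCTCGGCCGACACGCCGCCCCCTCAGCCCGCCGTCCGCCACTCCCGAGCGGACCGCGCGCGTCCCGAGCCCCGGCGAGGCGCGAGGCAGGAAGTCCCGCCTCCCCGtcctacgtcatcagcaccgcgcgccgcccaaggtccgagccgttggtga

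Without wild-type library 1, 14 further members besides Snhg1 and Mir17hg were called. Of these, 2010204K13Rik was lower, with 6.33, 7.31 and 7.25 CPM in knockout, against 8.35, 12.6 and 10.9 CPM in wild type (log2 fold change -0.61, adjusted p = 0.0508 with all libraries, and -0.73, adjusted p = 0.0253 without wild-type library 1, edgeR). The 13 higher ones were Gm35019, D330041H03Rik, Trmt61b, Eldr, 9530082P21Rik, Gm47815, 1500002C15Rik, D730005E14Rik, Gm50012, 1810034E14Rik, 4930458D05Rik, 2010001A14Rik and Gm9856. Eldr lies near the growth factor receptor gene Egfr and is divergent from Fbxo48, with starts 93 bases apart. Fbxo48 had a log2 fold change of 0.07 (edgeR adjusted p = 0.835). Eldr had 9.09, 8.81 and 7.95 CPM in the knockout libraries, against 7.42, 3.78 and 4.3 CPM in the wild-type libraries. Its groups did not overlap even with wild-type library 1, and the log2 fold change was 0.74 with it (edgeR adjusted p = 0.0806) and 1.11 without it (0.0108). Gm35019 had 17, 16.3 and 14.5 CPM in knockout, against 42.1, 10.7 and 11.9 CPM in wild type, so that its log2 fold change was -0.43 with that library and 0.51 without it.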

How the data were processed

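Bulk RNA-seq covered 3 Matr3 knockout and 3 wild-type libraries, grouped by their titles. The members and the gene lists were chosen with earlier results of these data known. The authors deposited 1 table of raw counts per gene, which were used as deposited, with FPKM values that are, by the values, the count over gene length and over a library size of 0.970 to 1.05 times the column total. The deposited log2 fold changes and p-values of the authors' own comparison were used only to count calls: 45 members pass an adjusted p of 0.05 in the authors' deposited table, including the 29 called here. Both sets of calls rest on the same counts, and the share of all genes called in the authors' comparison is not given here. Neither strandedness nor the aligner, counter or annotation is stated in the sources used here. The processing notes of the submitters name GRCm38 and mm10, but 4 of the 503 members found in GENCODE M21 of that build have the same coordinates there, so positions in the table served only to class neighbours, and printed sequences and coordinates are RefSeq's on GRCm38.p6.

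Counts were tested with edgeR 4.0.16 in R 4.3.3 (filterByExpr, TMM, quasi-likelihood F test, no covariate), with Benjamini-Hochberg adjustment over all 14842 tested genes and calls under 0.05, and the code was tested on simulated data. CPM uses TMM-adjusted library sizes, and fold changes are knockout over wild type. Shared sequence is the share of a member's 31-base words found in transcripts of other genes. Members named were all those on 8 lists of roles, the 10 largest rises and falls, the 10 highest by FPKM, the 8 with most excess in wild-type library 1, those next to the minimum, and pairs with both genes called, of which there were none. Others are said to be chosen after their values were seen. Alternatives were DESeq2 1.42.0, limma voom 3.58.1, other scalings and filters, a replicate block, a minimum of 300 counts, leaving out libraries, and, added after seeing the data, removal of each library's trend with GC content.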

Additional observations from a re-analysis of the deposited data

How the results depend on the processing

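Every call kept its direction under each of the 15 alternatives. Leaving out each library in turn, or knockout library 2 with wild-type library 1, gave 6 to 90 members called higher (18 with all libraries), 1 to 35 lower (11) and 807 to 7556 of all tested genes called (2252). With single libraries left out, the difference in the members' share of counts ran from -0.0493 to 0.0413 percentage points (-0.0180), above 0 without wild-type library 1. Without knockout library 2 and wild-type library 1 together, 125 of 504 members were called, among them all 29. That fit was the one that called 7556 of all tested genes, out of 14825. Of the other settings, no filter on low counts gave 38 higher and 46 lower, DESeq2 gave 20 lower, and removal of the trend with GC content, chosen after seeing the data, gave 29 higher. The causes were not tested. For these other settings and for the replicate block below, the shares of all tested genes called are not given here. RLE size factors, library totals alone, limma voom, a mean of at least 1 CPM and a sum of at least 300 counts kept both counts within 1.5 times.

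Replicate numbers gave no sign of pairing: the deviations of same-numbered libraries from their group means correlated at 0.174, -0.0316 and -0.203 across genes. Those of differently numbered libraries correlated at -0.221 to 0.285. With 3 libraries per group this check cannot exclude a pairing. With the replicate block 15 members were called higher and 6 lower, of which 19 were among the 29, and Snhg16 stood at 0.050 on the log2 scale.

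Of the members that were not called, some changed sign. Over the settings that leave out libraries, the log2 fold change ran from -0.53 to 0.036 in Gas5, -0.40 to 0.17 in Snhg6, -0.064 to 0.49 in Snhg8, -0.016 to 0.64 in Snhg12, -0.54 to 0.21 in Snhg15, -0.21 to 0.64 in Snhg16, -0.66 to 0.053 in Snhg17, -0.68 to 0.74 in Snhg20, -0.39 to 0.17 in 1110038B12Rik, -0.30 to 0.51 in Mir22hg, -0.76 to 0.042 in Mir99ahg, -0.40 to 0.27 in Ftx, -0.56 to 0.28 in Jpx, -0.72 to 0.12 in Firre, -0.16 to 0.24 in Morrbid, -0.027 to 1.07 in Hotairm1, -0.79 to 0.012 in Fendrr, -0.50 to 0.85 in Erdr1 and -0.81 to 0.44 in Gm47283. Snhg16 turned to 0.00645 with DESeq2, 0.0634 with limma voom, 0.00665 with a mean of at least 1 CPM and 0.0555 with no filter. Snhg6 turned to 0.132 without the GC trend and 0.0168 with no filter, Mir22hg to 0.0261 with limma voom and 0.000214 with the block, Morrbid to 0.0139, 0.00671 and 0.0314 without the GC trend, with limma voom and with no filter, and Oip5os1 to 0.0242 without the GC trend. For members with 150 to 499 counts, a median SE of 0.360 limits what can be told apart. Several of those named here, Gas5 among them, hold 2000 counts or more, where the median SE was 0.222.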
